A study of Homo sapiens with 6 samples.

Results

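The genes described here are those of the integrated stress response that runs through the transcription factor ATF4, together with its mitochondrial branch. They were taken by symbol from a fixed list of 36 genes holding the eIF2 kinases, ATF4 and its targets, enzymes of serine, one-carbon and proline synthesis, and mitochondrial proteases. Of these, 35 were among the 13008 genes of the authors' comparison table, and all 35 passed the filter on low values. The missing gene was ALDH1L2, a mitochondrial folate enzyme, whose FPKM lay between 0 and 0.00492 in the 6 libraries. The study sequenced polyadenylated RNA of hTERT-RPE1, a human retinal pigment epithelial line immortalised with telomerase, in the derivative Tet-FLAG-FOXM1c-hTERT-RPE1, which carries a doxycycline-inducible, FLAG-tagged FOXM1c, a cell cycle transcription factor. Cells of 3 libraries (dox) had been given doxycycline at 1 µg/mL every 24 h for 48 h and carry the genotype label FOXM1 overexpression. The other 3 libraries (no dox) came from the same named line without doxycycline and carry the genotype label WT. The labels do not say whether the line is 1 clone or how the cultures of a group relate, and the tests therefore rest on a spread between libraries that may be technical. Cells given doxycycline without the transgene were not analysed here, so the effects of the drug and of FOXM1 cannot be told apart.

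In the integrated stress response, a family of kinases that sense different stresses phosphorylate the alpha subunit of the translation initiation factor eIF2. Bulk translation then slows while the ATF4 mRNA is translated better, and ATF4 switches on genes for amino acid synthesis and uptake, tRNA charging and feedback. Mitochondrial stress reaches the same pathway, and doxycycline is known to inhibit mitochondrial translation. Because ATF4 and its kinases are controlled largely through translation and phosphorylation, their mRNA levels report the pathway less directly than the mRNA levels of their targets.

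FOXM1 mRNA matched the labels in all 6 libraries, with 65289, 66830 and 74976 normalised counts in dox replicates 1, 2 and 3 against 5009, 4383 and 4292 in no dox, counts that do not separate the transgene from the endogenous gene. Library depth ran from 15094498 to 49882123 reads, and each dox library was deeper than the no dox library of the same replicate number. The keratins KRT8 and KRT18 (at least 8740 normalised counts in every library) and the pigment epithelial factors MITF and OTX2 (at least 434) were present. So were the mesenchymal markers VIM, a filament gene (at least 104900), CDH2 (at least 8769) and COL1A1 (at least 2488). The mesenchymal marker DCN was low, at 13.75 to 35 normalised counts. Of the differentiated pigment epithelium markers RPE65 was at most 0.22 FPKM, BEST1 at most 0.0656, PMEL at most 0.0282, RLBP1 at most 0.0268 and TYRP1 at most 0.015. The epithelial markers EPCAM and CDH1 were at 0 and at most 0.0106 FPKM. The matched leukocyte and endothelial markers were all at or below 0.0406 FPKM.

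No member of the module passed the test between dox and no dox when the 3 libraries of a group were treated as plain replicates, and the members' median difference was close to 0. In bulk RNA, levels that differ in every cell and in a share of the cells cannot be told apart. With limma, 0 of 35 members passed an adjusted p of 0.05, where 71 of 13153 genes (0.540%) passed over the whole table. An unadjusted p under 0.05 was reached by 2 of 35 members, against 1710 of 13153 genes. The median difference of the members, dox minus no dox on the log2(normalised count + 1) scale, was -0.015, against -0.0022 over all tested genes. Over all tested genes the same-numbered libraries of the 2 groups deviated together, but the members' medians, given below, went opposite ways in replicates 1 and 3. With the replicate number as a block 4 of 35 members passed, against 2965 of 13153 genes (22.5%). That fit has 2 residual degrees of freedom, so its p-values rest largely on the spread pooled over genes. CEBPB, DDIT4 and PYCR1 rose and STC2 fell in that fit, which is 3 of 35 higher against 10.2% of all genes and 1 of 35 lower against 12.4%. In the authors' deposited table, which comes from edgeR, 1 of 35 members passed, CEBPB, which was higher in dox. There, 361 of 13008 genes (2.78%) passed, and 1.25% passed with dox higher.

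Behind the median near 0 stood differences of opposite sign. In replicate 1 the dox library was above the no dox library for 29 of 35 members, with a median difference of 0.40, while in replicates 2 and 3 it was above for 11 and 10 members, with medians of -0.11 and -0.18. Over all tested genes the 3 medians were 0.0030, -0.0026 and -0.013, with 50.6%, 49.4% and 47.4% of genes higher in dox. For 14 of 35 members (40.0%) dox was higher in replicate 1 and lower in both other replicates, against 1248 of 13153 genes (9.49%), and for no member was it the reverse. Such opposite differences cancel in the mean.

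**Figure D1:**
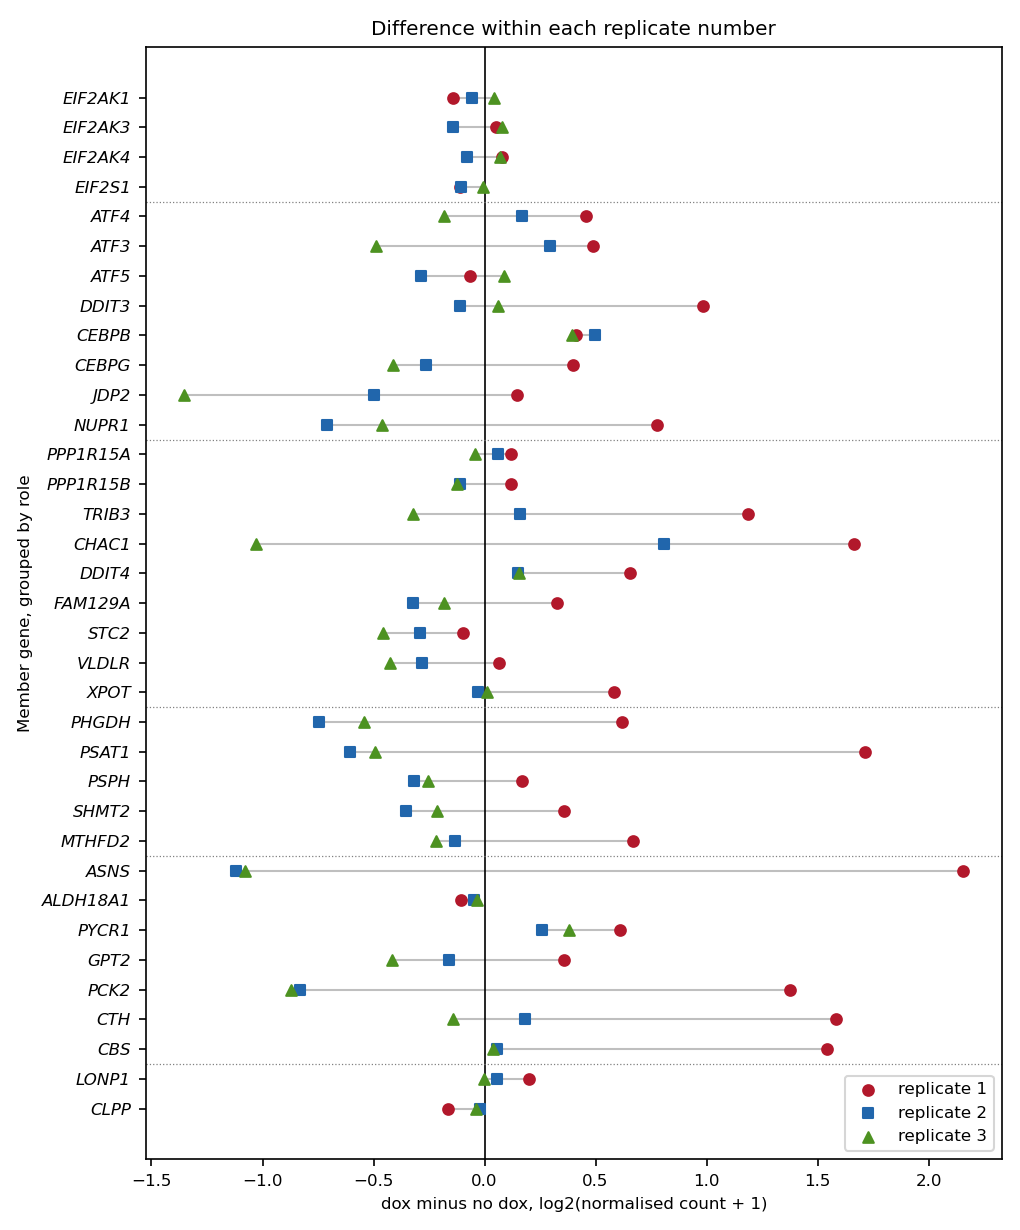
Difference between the dox and the no dox library of the same replicate number (x axis, log2 scale) for each of the 35 members measured (y axis, grouped by role; red circles replicate 1, blue squares replicate 2, green triangles replicate 3; grey lines join the lowest and highest). Replicate 1 lies to the right for 29 members, with ASNS at 2.16 in replicate 1 and at -1.12 and -1.08 in replicates 2 and 3, while CEBPB and PYCR1 lie above 0 in all 3 replicates.

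Many promoters of this pathway hold a C/EBP-ATF response element, at which ATF4 binds together with a C/EBP family partner. The letters TGATGNAA, which stand for its core, were searched on both strands in the RefSeq promoters of GRCh38.p14 (250 bases before to 50 after each annotated start). They were found in 6 of 43 promoters (14.0%) of the 28 members with an entry, where 1270 of 35116 promoters (3.62%) of all genes hold them, a description of these windows and not of binding. EIF2AK1, NUPR1, PSPH, SHMT2, ALDH1L2, PYCR1, GPT2 and CLPP had no entry. The whole promoters of ASNS (chr7:97872359-97872658, minus strand) and CHAC1 (chr15:40953221-40953520, plus strand) are shown because these were the members with the widest range of pair differences, and 40-base windows around the match are shown for the other 4 genes, 5′ to 3′ on the gene's strand with the match in capitals. The match starts 68 bases before the annotated start in ASNS and 209 before it in CHAC1, where it lies on the opposite strand and so reads as its reverse complement.
ASNS: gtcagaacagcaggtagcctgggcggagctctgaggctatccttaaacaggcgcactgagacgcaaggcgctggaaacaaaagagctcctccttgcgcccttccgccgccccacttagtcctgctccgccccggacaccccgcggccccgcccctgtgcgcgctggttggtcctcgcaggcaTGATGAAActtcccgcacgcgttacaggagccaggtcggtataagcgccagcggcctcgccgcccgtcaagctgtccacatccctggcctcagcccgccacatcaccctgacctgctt
CHAC1: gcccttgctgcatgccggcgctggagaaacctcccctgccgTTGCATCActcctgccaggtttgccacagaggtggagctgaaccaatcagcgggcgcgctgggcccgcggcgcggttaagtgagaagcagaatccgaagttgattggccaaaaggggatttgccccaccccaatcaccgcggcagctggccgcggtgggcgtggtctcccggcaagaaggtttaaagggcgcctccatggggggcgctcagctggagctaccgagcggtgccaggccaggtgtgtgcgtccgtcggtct
CEBPG: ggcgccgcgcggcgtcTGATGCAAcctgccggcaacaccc
JDP2: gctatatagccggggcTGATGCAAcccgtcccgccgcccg
ATF3: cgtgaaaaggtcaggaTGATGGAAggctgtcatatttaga
PPP1R15B: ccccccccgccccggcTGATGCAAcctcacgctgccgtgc
The windows lie at chr19:33374055-33374094 (CEBPG, plus strand), chr14:75427990-75428029 (JDP2, plus), chr1:212565200-212565239 (ATF3, plus) and chr1:204412021-204412060 (PPP1R15B, minus). CEBPG, JDP2 and PPP1R15B carry the letters TGATGCAA, ASNS TGATGAAA and ATF3 TGATGGAA.

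The sensors at the head of the pathway were among the steadiest members. EIF2AK1, the haem-regulated kinase HRI that also receives signals from stressed mitochondria, had 3934, 4069 and 4326 normalised counts in the dox libraries, given here and below as replicates 1, 2 and 3, against 4342, 4231 and 4200 in no dox. EIF2AK3, the endoplasmic reticulum kinase PERK, had 601.7, 537.5 and 513.2 against 579.8, 593.7 and 485.8. EIF2AK4, the amino acid sensor GCN2, had 4717, 4195 and 4518 against 4467, 4433 and 4308. The groups overlapped for all 3 kinases, and the differences were -0.052 (95% interval -0.22 to 0.11), -0.0037 (-0.27 to 0.26) and 0.023 (-0.15 to 0.19), with limma adjusted p-values of 0.847, 0.997 and 0.940. None of these intervals reached beyond 0.27 on the log2 scale in either direction. EIF2S1, which encodes the phosphorylated subunit eIF2 alpha, ranged from 3017 to 3672 in dox and from 3246 to 3970 in no dox (difference -0.075, adjusted p = 0.856). The EIF2AK1 locus overlaps AIMP2 and the EIF2S1 locus overlaps ATP6V1D, and the sources used here do not say whether counting used strand.

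ATF4 mRNA (chromosome 22, 39915700 to 39918691 of hg19) was even in dox and uneven in no dox. Its normalised counts were 5384, 5595 and 5435 in dox against 3918, 4980 and 6168 in no dox. The dox values fell inside the range of the no dox values, the lowest and the highest library both being no dox. The difference was 0.15 (95% interval -0.20 to 0.50, limma adjusted p = 0.778). In the blocked limma fit it was 0.31 without replicate 3 (adjusted p = 0.0185) and -0.0073 without replicate 1 (adjusted p = 0.935). Blocked fits without a replicate, here and below, were added after the data were seen. They hold 2 libraries per group and 1 residual degree of freedom, so their p-values rest mainly on the spread pooled over genes.

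Of the transcription factors downstream, CEBPB was the steadiest riser. CEBPB (chromosome 20, 48807376 to 48809212) encodes C/EBP beta, a bZIP protein that pairs with ATF4 and with CHOP. It had 3587, 4407 and 4110 normalised counts in dox and 2693, 3122 and 3131 in no dox, 4035 ± 415.3 against 2982 ± 250.3 (SD, n = 3 each). All dox libraries lay above all no dox libraries, and the differences within replicates 1, 2 and 3 were 0.41, 0.50 and 0.39. The difference of 0.43 (SE 0.10, a 1.35-fold change) missed the threshold in the fit with no block (limma adjusted p = 0.113) and met it in the blocked fit (SE 0.043, adjusted p = 0.000211), also with any of the 3 replicates left out. In the authors' deposited table its log2 fold change was 0.44 with an adjusted p of 0.0217.

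DDIT3, which encodes the pro-apoptotic factor CHOP, was high in a single library. It had 204.7, 124.1 and 96.45 normalised counts in dox and 103.0, 134.0 and 92.36 in no dox, so that dox replicate 1 stood apart and the other 5 libraries overlapped (difference 0.31, 95% interval -0.34 to 0.97, limma adjusted p = 0.742). DDIT3 overlaps the methionyl-tRNA synthetase gene MARS, and between 45 and 286 reads stood behind its values. ATF3, an early stress-induced factor, was near the low end of measurement, with 70.72, 61.61 and 41.42 normalised counts in dox against 50.09, 50.04 and 58.48 in no dox, and its groups overlapped (adjusted p = 0.922).

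The other 4 factors were all lower in dox in replicate 2 and over the 3 replicates, and none passed with or without the block. CEBPG, a partner of ATF4, differed by 0.40, -0.26 and -0.41 in replicates 1, 2 and 3, and NUPR1, a stress-induced chromatin protein, by 0.78, -0.71 and -0.46. JDP2, a repressor of the AP-1 family, differed by 0.14, -0.50 and -1.35 (limma adjusted p = 0.605, and 0.0922 with the block), its lowest library being dox replicate 3 with 97.49 normalised counts. ATF5, which is linked to the mitochondrial unfolded protein response, had 1035, 613.5 and 753.5 normalised counts in dox and 1084, 748.8 and 709.9 in no dox (difference -0.089, adjusted p = 0.922). The ATF5 locus overlaps NUP62, whose reads the deposited counts may not separate.

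**Figure D2:**
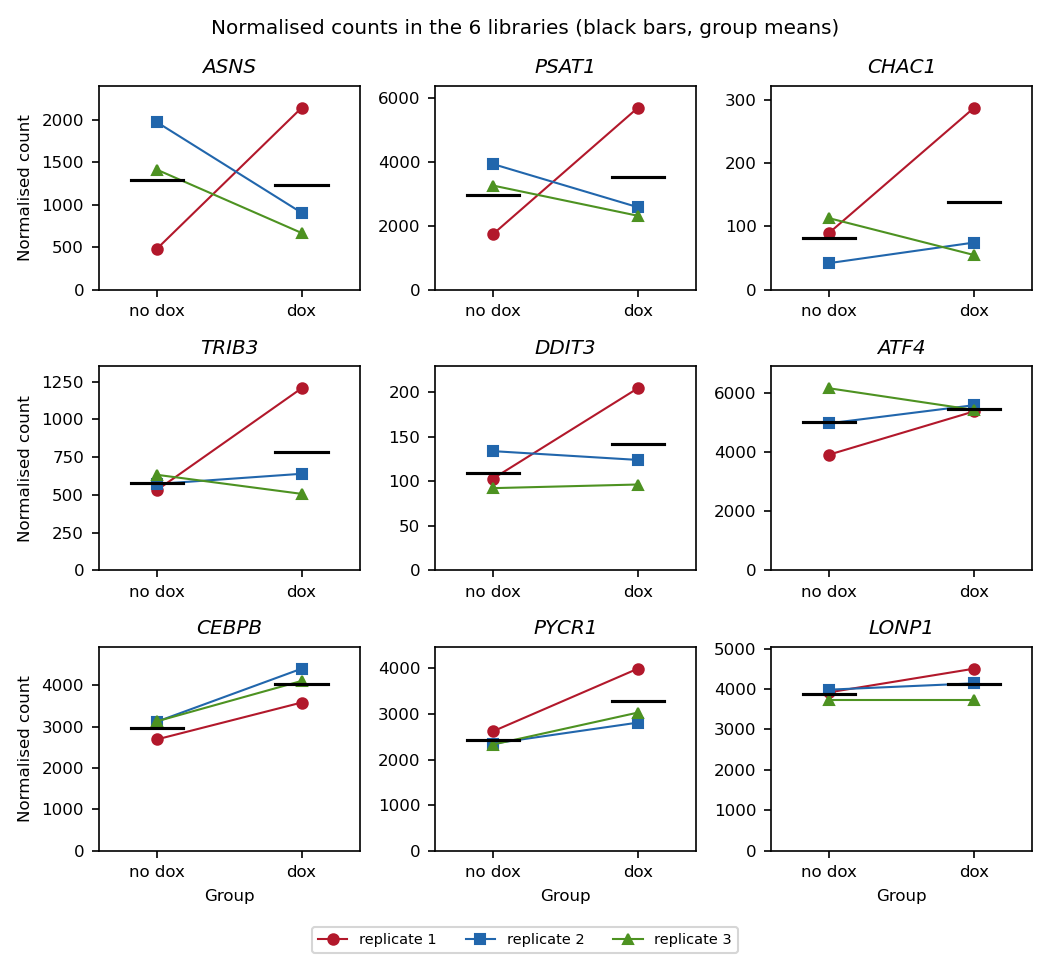
Normalised counts (y axis, from 0) of 9 members in the no dox and dox libraries, with lines joining libraries of the same replicate number and black bars at the group means. ASNS, PSAT1, CHAC1, TRIB3 and DDIT3 reach their highest level in dox replicate 1, while CEBPB and PYCR1 rise along all 3 lines and LONP1 stays between 3715 and 4501.

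Among feedback genes and effectors, the most variable was CHAC1, a glutathione-degrading enzyme that is a sensitive ATF4 target. CHAC1 (chromosome 15, 41245160 to 41248710) had 287.0, 74.57 and 54.91 normalised counts in dox and 89.79, 42.14 and 113.0 in no dox. Dox replicate 1 was the highest library and no dox replicate 2 the lowest, and the remaining libraries overlapped. Between 46 and 394 reads stood behind the CHAC1 values. The difference was 0.48 with a 95% interval from -0.95 to 1.92 (limma adjusted p = 0.836), which spans both a fall and a rise. TRIB3, a pseudokinase that restrains ATF4 and CHOP, had 1207, 639.8 and 506.7 against 530.4, 572.1 and 633.3, again with dox replicate 1 apart from the other 5 (difference 0.34, adjusted p = 0.709). In the blocked fit without replicate 3, CHAC1 (1.24, adjusted p = 0.00349) and TRIB3 (0.67, adjusted p = 0.0291) rose, and without replicate 1 their differences were -0.11 and -0.080.

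The subunits that lead protein phosphatase 1 to eIF2 alpha had similar means in both groups, the first with a wide spread within each. PPP1R15A, the stress-induced subunit GADD34, ranged from 1662 to 2384 normalised counts in dox and from 1713 to 2286 in no dox, and PPP1R15B, the constitutive subunit CReP, from 1333 to 1666 and from 1439 to 1533. Their differences were 0.046 and -0.039 (limma adjusted p = 0.944 and 0.926).

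DDIT4, which encodes the mTORC1 inhibitor REDD1, had 1545, 1862 and 2327 normalised counts in dox and 981.3, 1676 and 2092 in no dox. The groups overlapped, but dox was above no dox in all 3 replicates, by 0.65, 0.15 and 0.15. The difference of 0.32 passed with the block (limma adjusted p = 0.0280) and not without it (adjusted p = 0.715), and from FPKM values with the block it did not pass. STC2, a secreted glycoprotein induced by endoplasmic reticulum stress, was the most abundant member per kilobase of its longest transcript, at a median of 7377 normalised counts per kilobase in no dox. It had 47916, 32309 and 25370 normalised counts in dox against 51258, 39487 and 34875 in no dox, lower in dox in all 3 replicates, by 0.097, 0.29 and 0.46. Its difference of -0.28 passed with the block (adjusted p = 0.0125) and not without it (adjusted p = 0.721). The block call was lost when replicate 2 or replicate 3 was left out, or from FPKM values. The range of the 3 pair differences was 0.50 for DDIT4 and 0.36 for STC2, against a median of 0.20 over all genes. The p-values with the block, which lean on the pooled spread, may therefore be too small for both genes.

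Of the remaining effectors, the tRNA exporter gene XPOT differed by 0.58, -0.031 and 0.013 in replicates 1, 2 and 3, and FAM129A, an eIF2-linked survival protein also called Niban, by 0.33, -0.32 and -0.18. VLDLR, the very low density lipoprotein receptor, differed by 0.065, -0.28 and -0.42. None of the 3 passed with or without the block, the lowest adjusted p being 0.107 for VLDLR with the block.

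For all enzymes of serine synthesis and mitochondrial one-carbon metabolism measured, the sign of the difference depended on the replicate number. PHGDH, the first enzyme of serine synthesis, had 4113, 3239 and 2480 normalised counts in dox replicates 1, 2 and 3 against 2678, 5436 and 3610 in no dox. PSAT1, the second enzyme, had 5705, 2591 and 2322 against 1742, 3944 and 3270, so that the highest level was in dox replicate 1 and the lowest in no dox replicate 1. MTHFD2, the mitochondrial methylene-tetrahydrofolate dehydrogenase, had 4730, 2808 and 3069 against 2979, 3079 and 3570. The groups overlapped for these genes and for PSPH and SHMT2, the third enzyme of serine synthesis and the mitochondrial serine hydroxymethyltransferase.

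All 5 were higher in dox in replicate 1, by 0.17 (PSPH) to 1.71 (PSAT1), and lower in replicates 2 and 3. Over the 3 replicates none passed (limma adjusted p of at least 0.824 without and 0.316 with the block). In the blocked fit without replicate 1 all 5 fell, by 0.64 for PHGDH, 0.55 for PSAT1, 0.29 for PSPH, 0.28 for SHMT2 and 0.18 for MTHFD2. That fit holds 2 libraries per group and 1 residual degree of freedom, and its p-values rest mainly on the spread pooled over genes.

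ASNS, the asparagine synthetase whose promoter is shown above and whose gene lies on chromosome 7 (97481430 to 97501854 of hg19), had the widest range of pair differences. It had 2141, 907.2 and 669.1 normalised counts in dox and 479.8, 1974 and 1415 in no dox, or 1239 ± 789.9 against 1290 ± 754.9 (SD, n = 3 each). The highest library was dox replicate 1 and the lowest was no dox replicate 1, and the order of the groups was the opposite in replicates 2 and 3. Between 508 and 3048 reads stood behind each value. The difference was -0.015 with a 95% interval from -1.34 to 1.31 (limma adjusted p = 0.997). Without replicate 1, the replicate that went the other way, the blocked difference was -1.10 (limma adjusted p = 2.69e-16). Without replicate 3 it was 0.52 (adjusted p = 0.551). Both fits have 1 residual degree of freedom, and the small p-value rests mainly on the spread pooled over other genes, so it does not establish a fall of ASNS.

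PCK2, the mitochondrial phosphoenolpyruvate carboxykinase, ranked the 6 libraries in the same order as ASNS, with 959.8, 528.5 and 398.4 normalised counts in dox and 369.3, 941.9 and 730.4 in no dox. GPT2, the mitochondrial alanine transaminase, differed by 0.36, -0.16 and -0.42 in replicates 1, 2 and 3. The transsulfuration enzymes CBS and CTH, which make cysteine from homocysteine, were highest in dox replicate 1. CBS had 2080, 1303 and 968.9 against 713.7, 1253 and 943.7 (difference 0.55, limma adjusted p = 0.502), and CTH had 151.8, 63.64 and 56.56 against 49.95, 56.01 and 62.49 (0.54, adjusted p = 0.616). CTH was near the low end of measurement, with between 31 and 208 reads behind its values.

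The 2 proline synthesis enzymes behaved differently from each other. PYCR1 (chromosome 17, 79890260 to 79900288), the mitochondrial pyrroline-5-carboxylate reductase that makes proline, had 3995, 2811 and 3031 normalised counts in dox and 2619, 2351 and 2329 in no dox, 3279 ± 629.6 against 2433 ± 161.5 (SD, n = 3 each). All dox libraries lay above all no dox libraries, by 0.61, 0.26 and 0.38 in replicates 1, 2 and 3. The difference of 0.42 (SE 0.13, a 1.33-fold change) missed the threshold in the fit with no block (limma adjusted p = 0.231) and met it in the blocked fit (SE 0.062, adjusted p = 0.00164), also with any of the replicates left out. In the authors' deposited table its log2 fold change was 0.44 with an adjusted p of 0.0551. ALDH18A1, the enzyme of the step before, ranged from 5353 to 6950 in dox and from 5535 to 7483 in no dox, with a difference of -0.064 (95% interval -0.38 to 0.25, adjusted p = 0.908).

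CEBPB and PYCR1 were the only 2 of 35 members (5.71%) whose groups did not overlap, where 2507 of 13153 genes (19.1%) did not. In both dox was the higher group, as in 9.03% of all genes.

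The mitochondrial matrix proteases were flat. LONP1, which degrades misfolded matrix proteins, had 4501, 4138 and 3715 normalised counts in dox and 3916, 3982 and 3715 in no dox. CLPP, the catalytic subunit of the ClpXP protease, had 1778, 1738 and 1790 against 1996, 1760 and 1841. The groups overlapped for both, with differences of 0.085 (95% interval -0.12 to 0.29, limma adjusted p = 0.783) and -0.075 (-0.25 to 0.10, adjusted p = 0.773). LONP1 overlaps the ribosomal protein gene RPL36, whose reads the deposited counts may not separate.

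**Figure D3:**
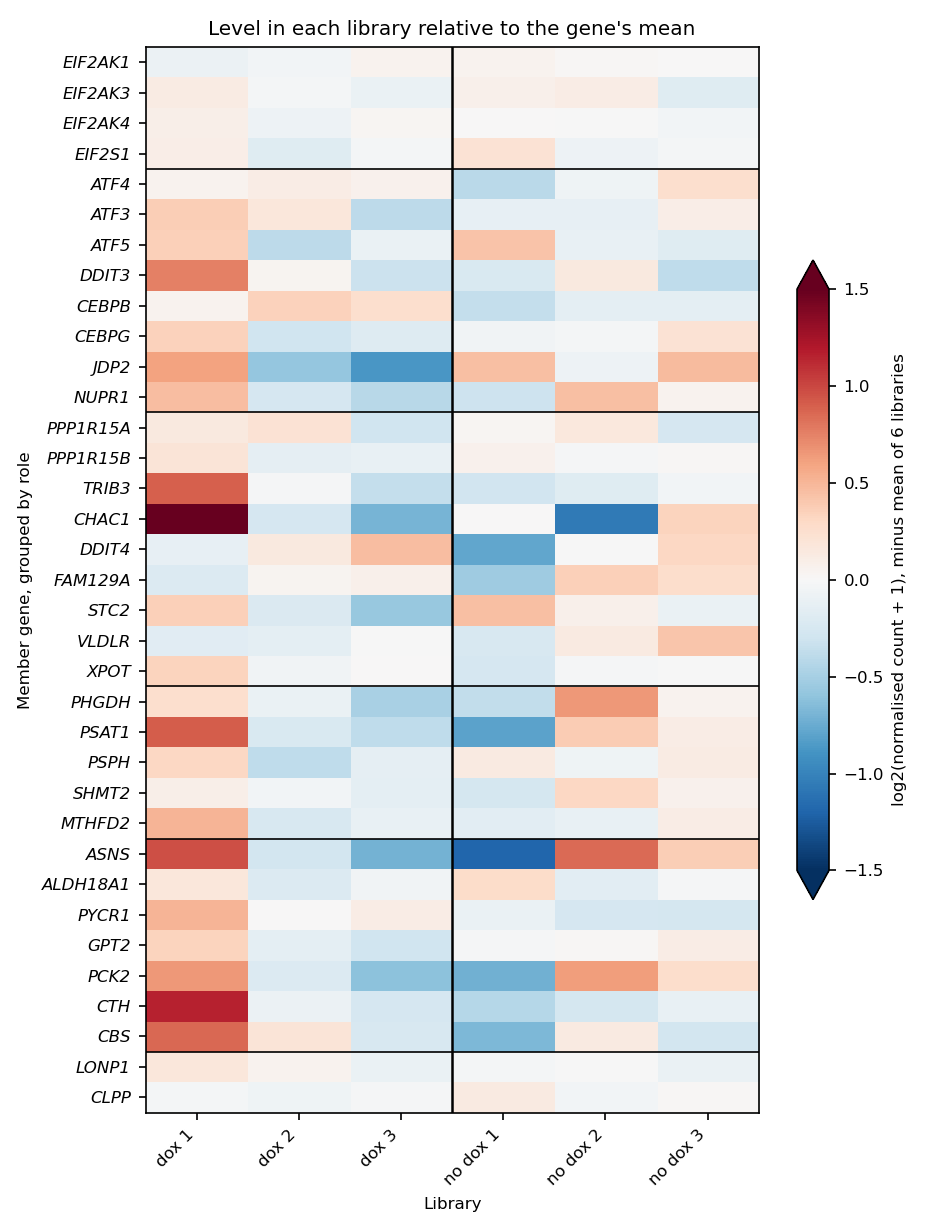
Level of each member in each library (colour, log2(normalised count + 1) minus the mean of the gene's 6 libraries, colours ending at 1.5 in either direction), with members in rows grouped by role and libraries in columns. Dox replicate 1 is mostly red, with a median of 0.33 over the 35 members, and no dox replicate 1 mostly blue, with a median of -0.12.

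The spread between libraries was wider for the members than for most genes in both groups. The median SD of log2 levels over the 3 libraries was 0.33 for the members and 0.15 for all tested genes in dox, and 0.21 and 0.14 in no dox, so the members also varied where no doxycycline was given. Relative to each gene's mean over the 6 libraries, the members' median was 0.33, -0.087 and -0.13 in the dox libraries of replicates 1, 2 and 3, against -0.12, -0.0092 and 0.020 in no dox. The median range of the 3 pair differences was 0.64 for the members and 0.20 for all genes. Across all 13153 genes the pair differences of replicates 1 and 2, 1 and 3, and 2 and 3 correlated at Pearson's r of 0.60, 0.51 and 0.59, and across the 35 members at -0.13, -0.40 and 0.46, a description across genes that are not independent replicates. With the block and without replicate 1, 14 of 35 members fell and 3 rose, where 15.8% and 13.4% of all genes did. Without replicate 3 none fell and 7 rose, where 7.66% and 5.87% of all genes did, and without replicate 2 none fell and 3 rose (6.31% and 4.44%). Whether the replicates differ in their response could not be tested, since each holds 1 library per group, and the part that depth had in the pattern was not tested.

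Other genes of the pathway were taken from 8 further lists, with 112 of 116 genes tested. The amino acid transporters linked to ATF4 and the cytosolic aminoacyl-tRNA synthetases had the members' pattern in their medians. For 6 of 9 transporters and 9 of 12 synthetases dox was higher in replicate 1 and lower in both other replicates. Over all genes the share was 9.49%. The same held for 4 of 13 other ATF4 and CHOP targets, whose medians were 0.25, 0.11 and -0.038 in replicates 1, 2 and 3. It also held for 5 of 16 genes of the IRE1 and ATF6 arms of the endoplasmic reticulum stress response. The 9 transporters had median differences of 0.56, -0.31 and -0.38 in replicates 1, 2 and 3, with 8, 2 and 1 of the 9 higher in dox. The 12 synthetases had medians of 0.50, -0.14 and -0.14, and all 12 were higher in dox in replicate 1, while 1 and 3 were higher in replicates 2 and 3. None of the synthetases passed with or without the block over all 3 replicates.

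The transporter genes SLC38A2, SLC3A2 and SLC7A11 departed from that pattern. SLC38A2 differed by -0.11, -0.090 and -0.15 in replicates 1, 2 and 3, and SLC3A2 by 0.73, 0.11 and -0.11. SLC7A11, the cystine/glutamate antiporter, was higher in dox in each replicate, and it was the 1 transporter called over all replicates. It had 3723, 3426 and 2884 normalised counts in dox and 870.5, 1414 and 1545 in no dox, with no overlap (difference 1.42, SE 0.21, limma adjusted p = 0.0430). The rise was largest in replicate 1, at 2.10, against 1.28 and 0.90 in replicates 2 and 3. It is a target of NRF2 and of ATF4. The difference also passed without no dox replicate 1 and lost the call, at adjusted p-values between 0.0726 and 0.169, without any of the other 5 libraries. It passed with the block (adjusted p = 0.000465) and did not from FPKM values without it (adjusted p = 0.0753).

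Of 13 other targets of ATF4 and CHOP tested, 1 rose without the block, where 0.319% of all genes did, and 4 rose and 1 fell with it, where 10.2% and 12.4% of all genes did. GDF15, a stress-induced cytokine that p53 also drives, had 95.32, 106.1 and 61.30 normalised counts in dox against 7.285, 4.604 and 7.901 in no dox (difference 3.53, limma adjusted p = 0.0148), with no overlap. Its no dox values all lay under 10, so GDF15 passed the filter on low values only through the dox libraries, where it was high. Its call, its lack of overlap and the 1 rise counted for the list carry that limit. As few as 2 reads stood behind a no dox value, and the size of the difference depends on the scale, at 2.97 with a pseudocount of 5 and 2.55 from FPKM values. The call was lost without dox replicate 2, dox replicate 3 or no dox replicate 3 (adjusted p = 0.0684, 0.0522 and 0.0607). With the block BBC3, the pro-apoptotic BCL2 family gene PUMA (0.43, adjusted p = 0.0154), and SQSTM1, the autophagy receptor p62 (0.17, adjusted p = 0.0222), rose, as did the death receptor gene TNFRSF10B. The thiol oxidase gene ERO1L fell (-0.37, adjusted p = 0.000462), also with any replicate left out. SQSTM1 and TNFRSF10B lost their calls without replicate 2 or replicate 3, and BBC3 without replicate 3 (adjusted p = 0.105). FGF21, ADM2 and INHBE were not in the normalised table.

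Of 19 other one-carbon, glycine and proline enzymes tested, 2 rose without the block, against 0.319% of all genes, and 5 rose and 3 fell with it, against 10.2% and 12.4%. ALDH1L1, the cytosolic formyltetrahydrofolate dehydrogenase, had 439.3, 357.8 and 385.0 normalised counts in dox against 160.5, 157.6 and 180.3 in no dox (difference 1.24, SE 0.12, limma adjusted p = 0.0165), while its mitochondrial paralogue ALDH1L2, a member, was close to absent. ALDH4A1, which degrades the proline intermediate that PYCR1 uses, had 642.2, 547.6 and 668.9 against 389.6, 320.3 and 372.7 (0.78, SE 0.12, adjusted p = 0.0467). Their groups did not overlap. ALDH1L1 lost its call without any 1 of the 4 libraries of replicates 2 and 3 (adjusted p between 0.0612 and 0.0980), and ALDH4A1 lost it without any 1 library (0.0852 to 0.178), from FPKM values (0.0548) and with quantile normalisation (0.0526), while both passed with the block. With the block the aspartate transaminase gene GOT1 rose (0.48, adjusted p = 0.000125) and so did the reductase gene PYCRL, a paralogue of PYCR1 (0.37, adjusted p = 0.00396), while the sideroflexin gene SFXN3 fell (-0.32, adjusted p = 0.00107). The list's median differences of 0.025, 0.10 and 0.0073 in replicates 1, 2 and 3 did not follow the members' pattern.

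In the list of eIF2, eIF2B and signalling genes none of 17 passed without the block, and 3 rose and 1 fell with it. The mitochondrial protease gene OMA1 had 300.8, 289.5 and 267.7 normalised counts in dox against 239.3, 219.7 and 223.8 in no dox (difference 0.33, limma adjusted p = 0.0212 with the block). KIAA0141, also called DELE1, which OMA1 cleaves to signal to the kinase HRI, had 1346, 1305 and 1248 against 1124, 1192 and 1119 (0.18, adjusted p = 0.0310 with the block). The groups did not overlap for either gene. Both calls were lost without replicate 2 (adjusted p = 0.156 for OMA1 and 0.113 for KIAA0141) or replicate 3 (0.0522 and 0.0992). EIF2S3, the gamma subunit of eIF2, rose (0.22, adjusted p = 0.0137) and PPP1CC, a catalytic subunit of protein phosphatase 1, fell (-0.22, adjusted p = 0.00426) in the same fit, EIF2S3 losing its call without replicate 3 (adjusted p = 0.0617). Over all genes 10.2% rose and 12.4% fell with the block.

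Among mitochondrial chaperones and proteases the calls were few and small. None of 13 passed without the block, and with it CLPX, the unfoldase partner of CLPP (0.18, limma adjusted p = 0.0329), the chaperone gene TRAP1 (0.21, adjusted p = 0.0365) and HSPE1, the matrix co-chaperonin (0.21, adjusted p = 0.0390), rose and none fell. The background for rises with the block was 10.2% of all genes. The 3 calls fell to 0 without replicate 2 and to 0 without replicate 3, and from FPKM values with the block CLPX alone was called.

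For the other arms of the endoplasmic reticulum stress response and the transcripts of the mitochondrial genome, calls were made only in the blocked fit. Of 16 genes of the IRE1 and ATF6 arms none passed without the block, and with it the co-chaperone genes DNAJB11 (0.32) and SDF2L1 (0.33) rose and CALR (-0.17) and PDIA6 (-0.15) fell, the limma adjusted p-values lying between 0.00402 and 0.0250. These 4 of 16 were close to the 22.5% of all genes called with the block, and DNAJB11 alone kept its call without replicate 2 and without replicate 3. Of 13 mitochondrially encoded mRNAs none passed without the block, and with it 5 fell and 1 rose, where 12.4% and 10.2% of all genes did. From FPKM values with the block 0 of the 13 were called. On normalised counts MT-CO1 fell by 0.35 on the log2 scale (adjusted p = 0.00234 with the block), MT-ND6 by 0.28 (0.00168), MT-ND5 by 0.30 (0.00436) and MT-CO2 by 0.30 (0.00662), while MT-ATP6, named after its values were seen as the one that rose, was higher by 0.21 (0.0129). In the blocked fit MT-CO1 and MT-ND6 kept their calls with any replicate left out. MT-ND5 and MT-CO2 lost theirs without replicate 2, and MT-ATP6 without replicate 2 or replicate 3. Doxycycline acts on the translation of the mitochondrially encoded mRNAs, which was not measured.

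**Figure D4:**
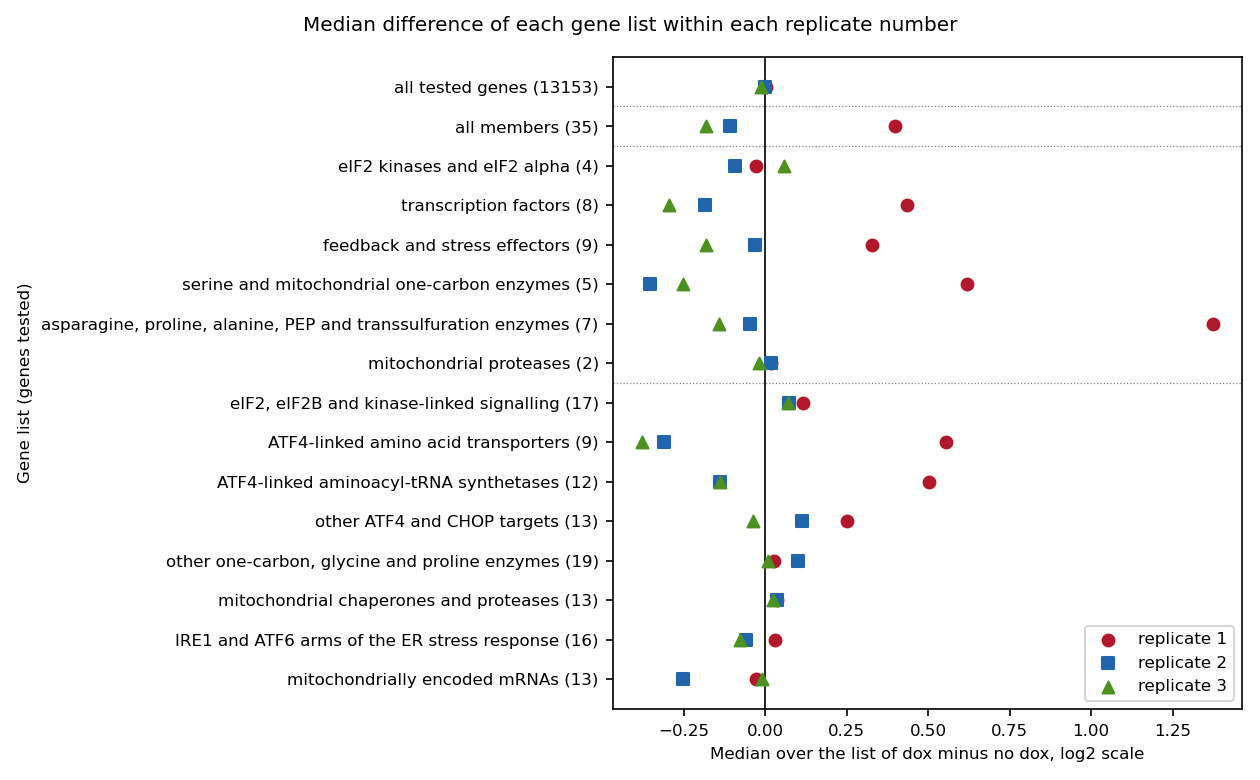
Median over each gene list of the difference between the dox and no dox library of the same replicate number (x axis, log2 scale), for all tested genes, the members, the 6 role groups of members and 8 further lists (y axis, number of genes tested in brackets). In replicate 1 (red circles) the synthesis enzymes, transporters and synthetases lie to the right of 0 and in replicates 2 and 3 (blue squares, green triangles) to its left, while all tested genes lie at 0.0030, -0.0026 and -0.013.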

How the data were processed

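Polyadenylated RNA of 6 libraries, 3 dox and 3 no dox, was measured, with groups and replicate numbers from the sample titles. Per the submitters' processing notes, the tools were TopHat, Trimmomatic, bcl2fastq and edgeR and the build was hg19, with no version or role given. The authors deposited a signal table of 13161 genes holding normalised counts, made by a formula the sources used here do not state, and FPKM values per gene width. That width exceeds the gene's span for 12 members, so levels were compared between genes per kilobase of the longest coding transcript in GENCODE 29. The authors' deposited comparison table gives CPM, log2 fold changes of dox over no dox, scores of the likelihood ratio test, p-values and adjusted p-values from edgeR, per the file headers. The smallest step in each CPM column gave the reads per library, with 100% of values whole within 0.01, and these reads were used only to describe depth.

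Differences were tested with limma-trend (limma 3.58.1, R 4.3.3), two-sided, on log2(normalised count + 1) for 13153 genes with at least 10 in at least 3 libraries. That scale understates changes of low genes. A gene was called at an adjusted p under 0.05 (Benjamini-Hochberg over the whole table). As a check of pairing, each library's deviation from its group mean was correlated with that of the library sharing its number in the other group (r = 0.745, 0.726 and 0.768), so the numbers were taken to pair the libraries. Without the block there are 4 residual degrees of freedom, with it 2, and with a pair left out 1. All members are named, with every library's value for those called in either fit and for a fixed core set. In the further lists, genes called without the block and up to 4 of those called with it are named. One gene that this rule selects is not reported here. The members and lists were chosen with earlier results of these data known. RefSeq promoters were matched by symbol, FAM129A as NIBAN1. The fit was tested on simulated data. Tables and figures used Python 3.11.15, numpy 2.4.6, pandas 2.3.3 and matplotlib 3.10.9.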

Additional observations from a re-analysis of the deposited data

How the results depend on the processing

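Of the 35 members, 0 passed under pseudocounts of 0.25 and 5, no filter, a minimum of 50 normalised counts, FPKM values, TMM scaling or quantile normalisation, or with any 1 library left out, all without the block. From FPKM values 31 genes were called over the whole table and 0 amino acid transporters, the difference was 0.023 for EIF2AK3 and 0.0013 for ASNS with or without the block, and under TMM scaling it was 0.0047 for EIF2AK3, also with or without it. The cause was not tested. With the replicate block 2965 genes and 4 members were called, and in the further lists 4 eIF2 genes, 5 other ATF4 and CHOP targets, 8 one-carbon enzymes, 3 mitochondrial chaperones, 4 IRE1 and ATF6 genes and 6 mitochondrially encoded mRNAs. The blocked fits on other scalings and those without a pair were added after seeing the data. With the block and FPKM values, 2081 genes and 2 members (CEBPB and PYCR1) were called and 4, 5, 7, 1, 2 and 0 genes in those 6 lists, in that order. The block with TMM gave 2978 genes, 4 members and 5, 7, 8, 3, 4 and 6, and the block with quantile normalisation 2918 genes, 4 members and 5, 6, 9, 4, 3 and 7. Leaving out single libraries called 3 to 21 genes and 0 members. Over these fits and the blocked fits without a pair, the counts ran from 3 to 3835 genes and from 0 to 17 members, and, by list, from 0 to 6 (eIF2), 0 to 7 (transporters), 0 to 7 (synthetases), 0 to 8 (other targets), 0 to 10 (one-carbon), 0 to 3 (chaperones), 0 to 9 (IRE1 and ATF6) and 0 to 8 (mitochondrial mRNAs). Members whose difference changed sign in these fits ranged, on the log2 scale, as follows: ALDH18A1 -0.16 to 0.058, ASNS -1.10 to 0.54, ATF3 -0.097 to 0.39, ATF4 -0.019 to 0.31, ATF5 -0.29 to 0.10, CEBPG -0.34 to 0.067, CHAC1 -0.23 to 1.24, DDIT3 -0.024 to 0.55, EIF2AK3 -0.094 to 0.066, EIF2AK4 -0.016 to 0.074, EIF2S1 -0.15 to 0.013, FAM129A -0.34 to 0.11, GPT2 -0.29 to 0.098, MTHFD2 -0.18 to 0.27, NUPR1 -0.59 to 0.16, PCK2 -0.85 to 0.27, PHGDH -0.64 to 0.045, PPP1R15A -0.072 to 0.21, PPP1R15B -0.14 to 0.018, PSAT1 -0.55 to 0.61, PSPH -0.32 to 0.021, SHMT2 -0.28 to 0.073, TRIB3 -0.080 to 0.67, XPOT -0.0092 to 0.30. With 1 library left out, 38 of 210 member values changed sign, in 22 of 35 genes, and none was called; without a pair 26 of 105 did, in 20 genes. The planned count tests with edgeR and DESeq2 were not run, because 3 of the 6 CPM columns held too few low values for the criterion set for recovering whole reads. No member value rested on fewer than 30 reads, but with 3 libraries per group the members' spread limits what could be called.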
